A study of Drosophila melanogaster with 12 samples.

Results

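Genes that govern fat storage, fat breakdown and insulin signalling were followed in fly heads from a study of the targets of the clock transcription factor CLOCK (CLK). The set was named gene by gene and holds the adipokinetic hormone receptor gene AkhR, the lipid droplet genes Lsd-1 and Lsd-2, the lipase genes brummer (bmm) and Lip4, tobi, Thor, the insulin receptor gene InR, foxo and Ilp6. Of the 10 genes, 8 had a probe set annotated to them alone on each of both array designs, out of 11982 genes named on one design and 10844 on the other. No probe set was annotated to Thor or Ilp6 in the annotation used here, and both genes were not analysed here. AkhR had 2 probe sets on the design with 8 arrays, and every other member had 1 on each design.

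The samples are total RNA from heads of Drosophila melanogaster that express CLKGR, a CLK protein joined to glucocorticoid receptor sequence so that dexamethasone (DEX), a steroid, turns it on. All groups carry CLKGR and received cycloheximide (CHX), a blocker of protein synthesis, so the arms differ in DEX against vehicle. Zeitgeber time (ZT) counts hours from lights on, so that ZT16 lies in the night and ZT4 in the day of a usual light cycle. The 8-array table holds 2 DEX arrays and 2 vehicle arrays at ZT16, 2 DEX arrays and 1 vehicle array at ZT4, and 1 vehicle array without a labelled time, while the 4-array table holds 2 DEX arrays and 2 vehicle arrays, all without a labelled time. The sources used here name no driver for the transgene and give no age, sex or number of heads per array. Whether replicates are separate pools of flies is unstated, so each p-value reflects array-to-array spread that may be technical.

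In insects, adipokinetic hormone (AKH) acts through its receptor on fat body cells, the counterpart of liver and adipose tissue, and sets free stored fat and sugar. Stored triglyceride lies in lipid droplets whose surface proteins, the perilipins Lsd-1 (PLIN1) and Lsd-2 (PLIN2), govern the access of lipases such as brummer, the fly counterpart of the mammalian adipose triglyceride lipase. Insulin-like peptides act through InR and keep the transcription factor FOXO out of the nucleus, and when insulin signalling is low FOXO switches on genes such as InR, Lip4 and bmm. Fat body tissue lies beneath the cuticle of the head, and the head clock is known to influence feeding and fat metabolism.

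Levels are given on the log2 scale, as the natural log of the deposited value, a reading explained with the processing. With log2 of the deposited value every difference would be 1.443 times as large, and the tests would be the same. Each array had a median level of 3.43 to 3.51 over the probe sets kept for testing. Probe sets counted as dim, and not tested, when their mean over a table lay at or below 2.779 on the 8-array table or 2.924 on the 4-array table. All 8 members passed on the 8-array table and 7 on the 4-array table, where foxo was dim. On the 8-array table, vehicle ZT16 replicate 1 correlated least with the rest, at 0.945 on average, and the other arrays at 0.952 to 0.969. The clock gene tim, a known target of CLK, ran from 8.21 to 10.58 on the timed DEX arrays and from 5.49 to 6.70 on the timed vehicle arrays. With DEX it read 9.42 and 8.21 at ZT16 against 10.58 and 10.30 at ZT4. With vehicle it read 5.49 and 6.43 against 6.70, so tim was lower at ZT16 in both treatments. The reason was not tested. On the 4-array table it read 3.98 and 4.05 on the arrays labelled DEX, against 7.77 and 7.87 on the arrays labelled vehicle, the opposite direction. The clock gene per ran from 9.52 to 11.04 on the timed DEX arrays and from 7.62 to 7.96 on the timed vehicle arrays. With DEX it read 10.62 and 9.52 at ZT16 against 11.04 and 10.74 at ZT4, and with vehicle 7.96 and 7.76 against 7.62. It likewise went against the labels on the 4-array table, with 5.54 and 5.63 on the arrays labelled DEX and 8.30 and 6.67 on those labelled vehicle. The labels of these 4 arrays are thus in doubt. They are called by their labels, and if the labels were exchanged every DEX difference given for that table would have the opposite sign. Levels of a few neuron and fat body markers were read as a description. Neuronal elav lay between 5.43 and 5.77 on the 8 arrays and between 3.73 and 4.29 on the 4 arrays. The fat body gene Lsp2 lay between 5.68 and 10.19 and between 5.20 and 6.05. The fat body gene Fbp1 was dim on the 8-array table, at 2.46 to 2.58, and read 3.37 to 4.61 on the 4-array table. Other fat body markers were bright on the 8-array table, apolpp at 9.97 to 11.13 and Yp1 at 13.59 to 14.61.

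The first comparison asks how the members differed between ZT16 and ZT4 over both treatments. AkhR was higher and Lsd-1 lower on all 4 arrays of ZT16 than on all 3 arrays of ZT4, bmm was higher by a narrow margin, and the ranges of Lsd-2, Lip4, tobi, InR and foxo overlapped. With limma and Benjamini-Hochberg adjustment across the 11261 kept probe sets, none of the 8 members passed, and 0% of all probe sets did. Adjusted p-values of the members lay between 0.990 and 0.992. At an unadjusted p under 0.05 stood 1 member with a higher level at ZT16, AkhR, where 1.58% of all probe sets did, and 1 with a lower level, Lsd-1, where 1.99% did. Groups that did not overlap were seen for 2 members in the higher direction and 1 in the lower, against 2.44% and 2.25% of all probe sets, 4.69% in both directions. The members had been listed with such values known, so these counts describe the list.

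The receptor through which AKH reaches the fat body, AkhR, had levels of 3.67 and 3.85 on the DEX arrays and 3.91 and 3.48 on the vehicle arrays at ZT16. At ZT4 it had 3.04 and 3.15 with DEX and 3.16 with vehicle. The gap between the lowest ZT16 array and the highest ZT4 array exceeded the spread among the ZT4 arrays. It was smaller than the difference of 0.43 between the vehicle replicates at ZT16. No treatment group at ZT16 reached down to ZT4. Its mean was 3.73 ± 0.19 (SD, n = 4) at ZT16 and 3.12 ± 0.07 (SD, n = 3) at ZT4. The ZT4 levels lay below the median level of every array and close to the dim level of 2.779. The treatment-adjusted difference was 0.61 ± 0.14 (SE), or 1.53-fold, with an unadjusted limma p of 0.00357, the 18th smallest of 11261. Over 14 alternative settings, left-out arrays included, on the same scale this difference ran from 0.55 to 0.69. Its other probe set, which was dim, did not show the difference: it lay between 2.69 and 2.90 on the 8 arrays and differed by 0.03 ± 0.07 (SE).

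**Figure D1:**
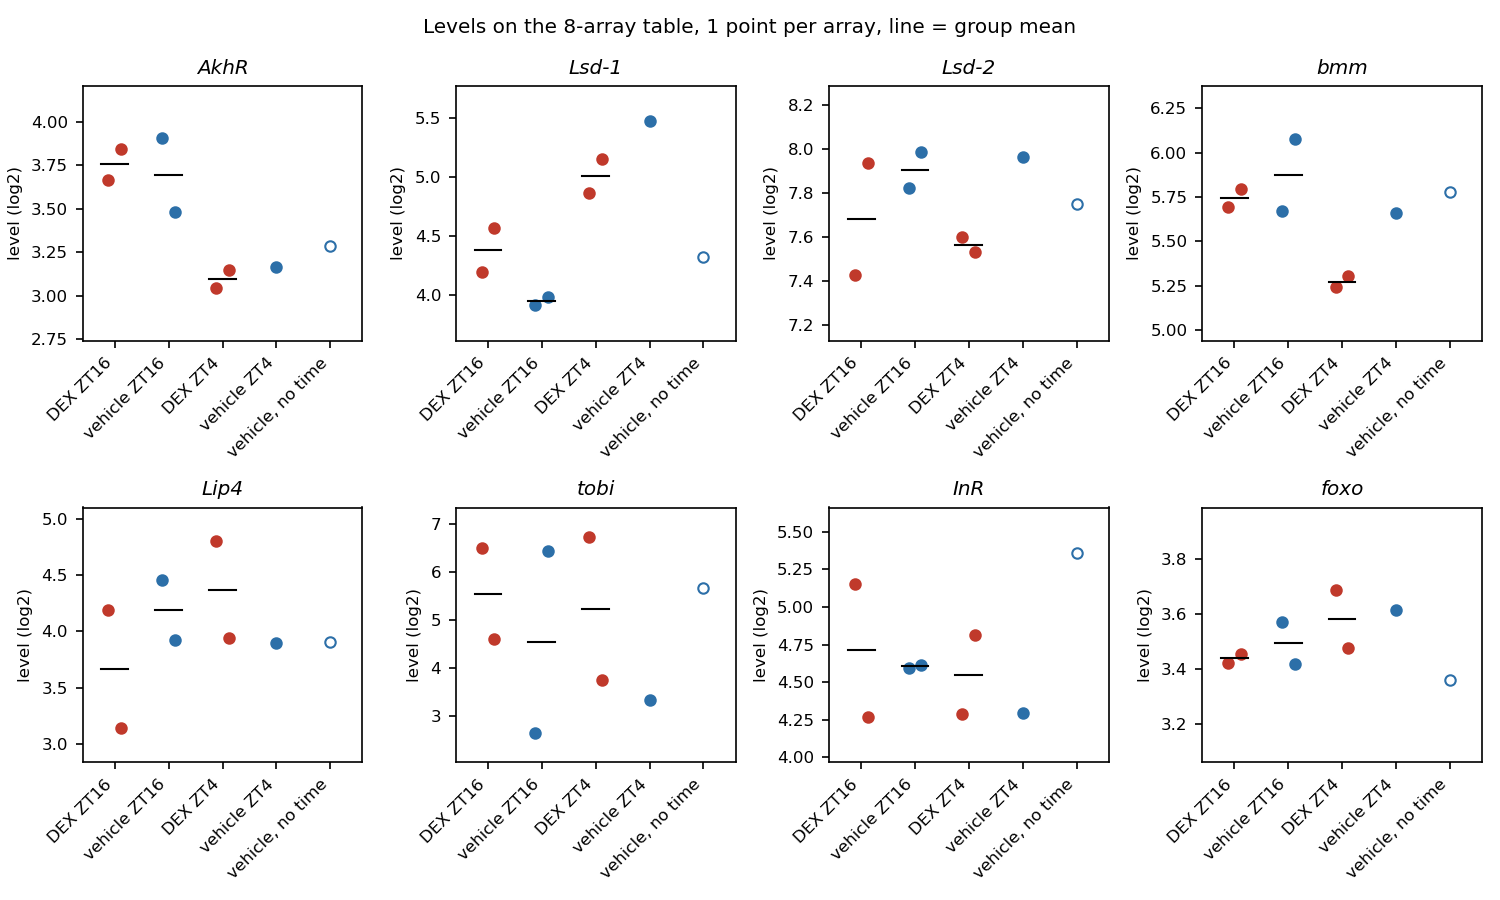
Level of each member on the log2 scale (vertical axis, each panel with its own range) on every array of the 8-array table, with 1 point per array. Red points are DEX arrays, blue points vehicle arrays, the open point is the vehicle array without a labelled time, and lines are group means. AkhR lies at 3.48 or above on the ZT16 arrays and at 3.16 or below on the ZT4 arrays, Lsd-1 at 4.56 or below and at 4.86 or above, and tobi spans 2.65 to 6.73.

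Lsd-1, the perilipin that AKH signalling acts on when fat is released, had 4.19 and 4.56 with DEX and 3.91 and 3.98 with vehicle at ZT16. At ZT4 it had 4.86 and 5.15 with DEX and 5.47 with vehicle. Its mean was 4.16 ± 0.29 (SD, n = 4) at ZT16 and 5.16 ± 0.31 (SD, n = 3) at ZT4. The level was thus lower on every ZT16 array than on any ZT4 array. The adjusted difference was -0.98 ± 0.24 (SE), a level 1.98-fold lower at ZT16, with an unadjusted limma p of 0.00433. Without the single ZT4 vehicle array, the highest of all, the difference was -0.63, and over 14 alternatives on the same scale it ran from -1.17 to -0.63.

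The related perilipin Lsd-2, which shields stored fat from lipases, did not follow Lsd-1. It had 7.43 and 7.94 with DEX and 7.83 and 7.99 with vehicle at ZT16, against 7.60 and 7.53 with DEX and 7.96 with vehicle at ZT4. High and low arrays occurred at both times. The difference between ZT16 and ZT4 was 0.05 ± 0.21 (SE), with a 95% interval of -0.45 to 0.54.

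Brummer, which cuts triglyceride at the droplet, had 5.69 and 5.80 with DEX and 5.67 and 6.08 with vehicle at ZT16. At ZT4 bmm had 5.24 and 5.30 with DEX and 5.66 with vehicle. The ZT4 vehicle array lay just under the lowest ZT16 array, so that the ranges met without overlapping. The difference was 0.37 ± 0.19 (SE), or 1.29-fold, with an unadjusted limma p of 0.0958 and a 95% interval of -0.08 to 0.82. That p lay under 0.05 in 4 of 14 alternatives, in which the difference ran from 0.32 to 0.47 overall. Lip4, which encodes an acid lipase, had 4.19 and 3.14 with DEX and 4.45 and 3.92 with vehicle at ZT16, against 4.80 and 3.94 with DEX and 3.90 with vehicle at ZT4. Its replicates with DEX differed by 2.07-fold at ZT16 and by 1.82-fold at ZT4. The difference between times was -0.31 ± 0.37 (SE), within that spread.

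The gene tobi, which encodes an alpha-glucosidase family protein known to respond to insulin and AKH signalling in fat body, was by far the most variable member. It had 6.50 and 4.60 with DEX and 2.65 and 6.44 with vehicle at ZT16, against 6.73 and 3.75 with DEX and 3.34 with vehicle at ZT4. Each pair of replicates thus held a high and a low array. The replicates differed by 13.9-fold in ZT16 vehicle heads, by 7.92-fold in ZT4 DEX heads and by 3.73-fold in ZT16 DEX heads. The difference between times was 0.67 ± 1.09 (SE), with a 95% interval of -1.91 to 3.25. With so wide an interval, a day-night difference of several fold in either direction was not detectable.

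The insulin receptor gene InR had 5.15 and 4.27 with DEX and 4.60 and 4.62 with vehicle at ZT16. At ZT4 it had 4.29 and 4.81 with DEX and 4.29 with vehicle. The DEX replicates lay on both sides of the vehicle arrays at ZT16, and the difference between times was 0.22 ± 0.26 (SE), with a 95% interval of -0.38 to 0.83. The transcription factor gene foxo had 3.42 and 3.46 with DEX and 3.57 and 3.42 with vehicle at ZT16, against 3.69 and 3.48 with DEX and 3.62 with vehicle at ZT4. All its levels fell into a band from 3.36 to 3.69 over the 8 arrays. Its difference was -0.13 ± 0.12 (SE), and the 95% interval of -0.41 to 0.14 allows a level from 0.752 to 1.10 times that of ZT4.

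Within the DEX arrays alone the differences between ZT16 and ZT4 were 0.66 ± 0.20 (SE) for AkhR, -0.63 ± 0.24 for Lsd-1 and 0.47 ± 0.27 for bmm. Within the vehicle arrays, where ZT4 has a single array assumed to vary like the others, they were 0.53 ± 0.24, -1.52 ± 0.30 and 0.21 ± 0.33. AkhR and Lsd-1 thus kept their direction within each treatment. No member passed limma's test with adjustment over all probe sets in either treatment, where 0.00888% and 0% of all probe sets passed. At an unadjusted p under 0.05 stood AkhR and Lsd-1 among the DEX arrays, where 3.35% of all probe sets did, and Lsd-1 among the vehicle arrays, where 3.49% did.

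For Lsd-1 the DEX difference was 0.43 ± 0.24 (SE) at ZT16, with an unadjusted limma p of 0.127, and -0.47 ± 0.30 at ZT4, with a p of 0.171 and a single vehicle array. The difference between these 2 DEX effects was 0.90 ± 0.39 (SE), with an unadjusted limma p of 0.0593 and an adjusted p of 0.997, so it did not pass. No member stood at an unadjusted p under 0.05 for DEX at ZT16 or at ZT4, where 2.8% and 4% of all probe sets did. An unadjusted p under 0.05 was reached by 2.72% of all probe sets and by 0 of the 8 members in this comparison. For AkhR this difference was 0.13 ± 0.31 and for bmm 0.26 ± 0.42.

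Markers of head cell types were set beside the day-night differences. Summed over 7 markers of photoreceptors and the eye, the log2 level ran from 11.27 to 12.08 at ZT16 and from 10.75 to 10.89 at ZT4, and all 7 had a positive difference with an unadjusted limma p under 0.05. Summed over 9 neuronal markers it ran from 7.99 to 8.43 and from 7.67 to 7.84. Of the 7 neuronal markers kept, 6 had a positive difference and 3 an unadjusted p under 0.05, ChAT, Gad1 and Snap25. The pan-neuronal genes elav and nSyb had differences of 0.07 ± 0.17 (SE) and -0.10 ± 0.15. The fat body markers overlapped, with a summed level of 14.89 to 16.12 at ZT16 and 15.19 to 16.26 at ZT4. The yolk protein genes Yp1, Yp2 and Yp3 were the brightest of these markers on both tables, so every fat body sum mostly reflects them. Of the 8 kept markers 3 had a positive and 5 a negative difference, with a median of -0.11. Lsp2, with the smallest p, had 1.67 ± 0.80 (SE) and an unadjusted limma p of 0.0733. Glial, muscle, haemocyte and oenocyte sums overlapped as well. Eye and neuronal markers moved with AkhR and bmm, and their part in those differences was not tested. In these bulk samples, fewer cells of a type and less RNA per cell cannot be told apart.

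The second comparison asks whether the members differed between DEX and vehicle on the 7 timed arrays. None of the 8 members passed limma's test after adjustment over all probe sets, where 0% of all probe sets passed, and 0 stood at an unadjusted p under 0.05, where 3.39% of all probe sets did. No member had DEX and vehicle arrays that did not overlap, against 4.51% of all probe sets, 1.99% higher and 2.52% lower with DEX. Adjusted p-values of the members lay between 0.994 and 0.999. The median difference of the 8 members was -0.02, against -0.01 for all probe sets.

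Values of the DEX difference, adjusted for time, were 0.01 ± 0.14 (SE) for AkhR, 0.07 ± 0.24 for Lsd-1, -0.29 ± 0.21 for Lsd-2 and -0.23 ± 0.19 for bmm. The intervals bound these differences: with DEX the level of AkhR lay between 0.798 and 1.27 times, and that of bmm between 0.621 and 1.16 times, the vehicle level, at 95% confidence. Lip4 had -0.13 ± 0.37, InR 0.16 ± 0.26 and foxo -0.05 ± 0.12. The sign of the differences of AkhR, Lsd-1, Lip4, InR and foxo was not the same under every alternative setting. For tobi the difference was 1.36 ± 1.09, and the interval of 0.431 to 15.3 times reflects the scatter of its replicates. The DEX levels of tobi, 3.75 to 6.73, overlapped the vehicle range of 2.65 to 6.44. The fat body marker sums overlapped, from 15.19 to 16.12 with DEX and from 14.89 to 16.26 with vehicle, as did those of eye, neuron, glia, muscle and haemocyte markers. All 7 eye markers had a positive DEX difference, with a median of 0.26 and none at an unadjusted limma p under 0.05. The sum of 4 oenocyte markers did not overlap, from 7.33 to 8.22 with DEX and from 7.03 to 7.13 with vehicle. Of the 3 kept, Desat1 had 0.70 ± 0.28 (SE), while Cyp4g1 had -0.02 ± 0.07 and svp 0.09 ± 0.20. The part of these cell types in the members' values was not tested.

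**Figure D2:**
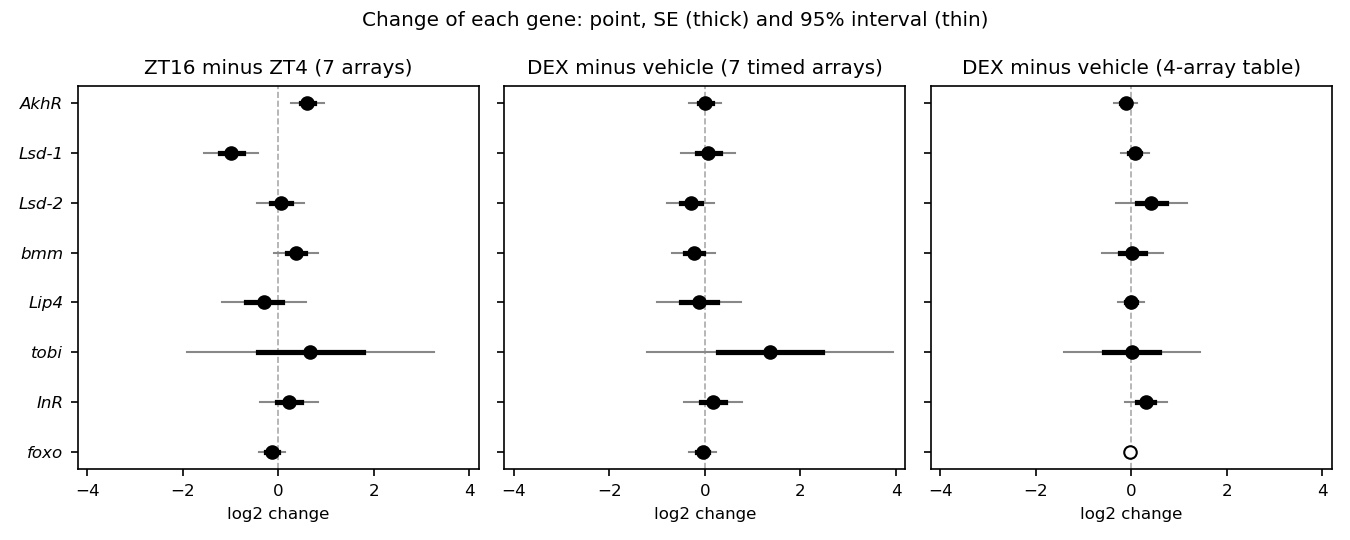
Log2 difference of each member (horizontal axis) for ZT16 minus ZT4, for DEX minus vehicle on the timed arrays and for DEX minus vehicle on the 4-array table. Points are estimates, thick bars 1 SE, thin bars the 95% interval, and the open point marks foxo, which was dim on the 4-array table. The intervals of AkhR (0.27 to 0.94) and Lsd-1 (-1.55 to -0.42) leave out 0 for ZT16 minus ZT4, while all 8 intervals include 0 for DEX on the timed arrays.

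The 4-array table gives the same contrast by label on other arrays without a labelled time. None of its 7 kept members passed limma's test after adjustment over 8379 probe sets, where 0.0119% of all probe sets passed, and 0 stood at an unadjusted p under 0.05, where 5.42% did. Adjusted p-values of the members lay between 0.778 and 0.998. Lsd-2 had 6.62 and 6.49 on the arrays labelled DEX, against 6.48 and 5.79 on those labelled vehicle. It was the only kept member whose groups did not overlap, a separation in the higher direction that 12.1% of all probe sets showed, while 31.4% were separated in the lower direction and 43.5% in either. Its difference was 0.42 ± 0.30 (SE), with a 95% interval of -0.33 to 1.16. It was 0.07 without the low array, called vehicle replicate 3 here although its label carries no number.

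AkhR had 3.06 and 3.12 on the arrays labelled DEX, against 3.11 and 3.31 on those labelled vehicle, and Lsd-1 had 3.31 and 3.03, against 3.03 and 3.17. Both lay close to the dim level of that table. The lipase gene bmm had 4.32 and 4.92, against 4.79 and 4.40, and Lip4 had 3.48 and 3.46, against 3.40 and 3.57. InR had 4.13 and 3.70, against 3.51 and 3.71, with a difference of 0.30 ± 0.18 (SE). For tobi the levels were 4.88 and 6.31 on the arrays labelled DEX and 6.14 and 5.05 on those labelled vehicle. As on the other table, its replicates differed within each group, here by 2.70-fold with the DEX label and 2.13-fold with the vehicle label. The dim foxo read between 1.99 and 2.05 on all 4 arrays. Summed fat body markers ran from 13.51 to 14.62 on the arrays labelled DEX and from 13.22 to 14.27 on those labelled vehicle, and muscle markers from 8.60 to 9.48 and from 9.24 to 9.84. Haemocyte sums did not overlap, from 5.45 to 5.47 with the DEX label and from 5.50 to 5.62 with the vehicle label, and all 5 markers had a negative difference. Oenocyte sums did not overlap either, from 6.43 to 6.56 and from 6.34 to 6.40. The 2 kept oenocyte markers differed in sign, with -0.15 ± 0.08 (SE) for Cyp4g1 and 0.19 ± 0.21 for Desat1. Of 5 muscle markers, 4 had a negative difference, 2 with an unadjusted limma p under 0.05, and the part of these cell types in the members' values was not tested.

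**Figure D3:**
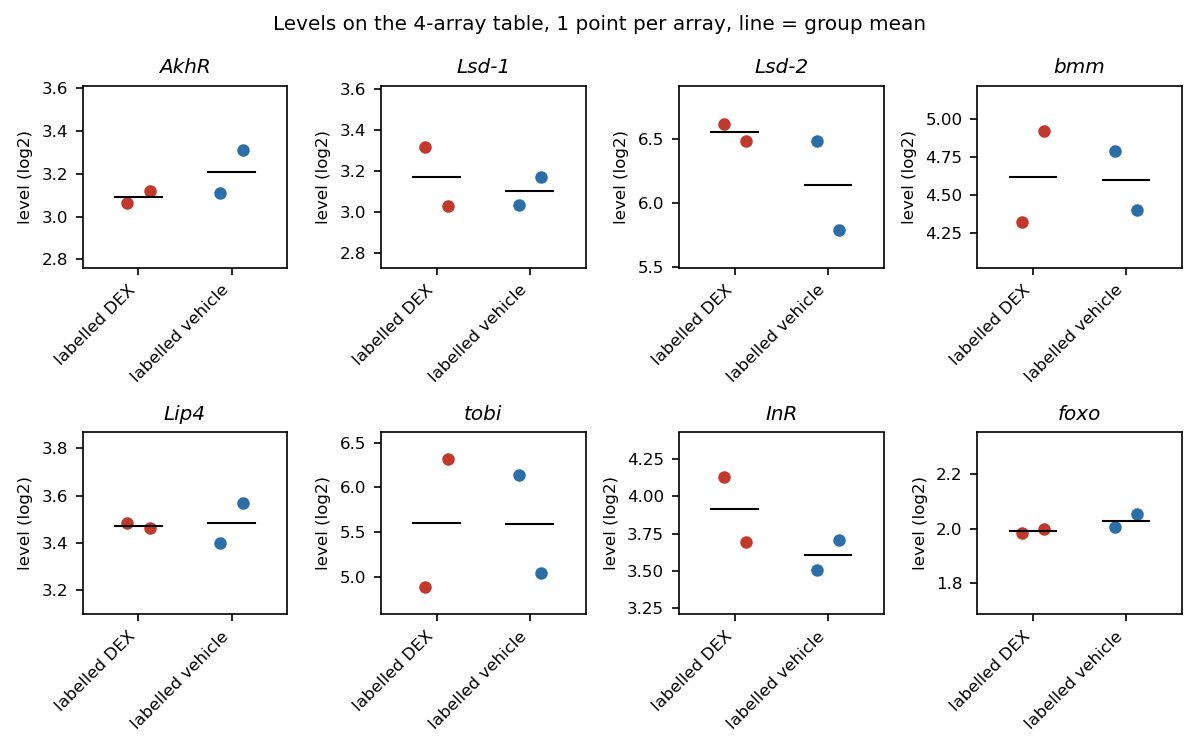
Level of each member on the log2 scale (vertical axis, each panel with its own range) on the 4 arrays without a labelled time, with 1 point per array and the group mean as a line. Red points are arrays labelled DEX and blue points arrays labelled vehicle. The groups overlap for AkhR, Lsd-1, bmm, Lip4, tobi and InR, and tobi has a high and a low array in each group.

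Genes whose levels ran most like those of AkhR, Lsd-1 and bmm were sought among 7970 other genes over the 8 arrays, by Pearson correlation. These are the best of many, share the same arrays and are given as a description. For bmm the first was Pepck1, with r = 0.98 and rho = 0.98. Pepck1 encodes phosphoenolpyruvate carboxykinase, which makes glucose and the glycerol of fat when food is short, and it had been listed with the FOXO-linked and starvation genes. Pepck1 had 11.69 and 11.77 with DEX and 11.66 and 12.10 with vehicle at ZT16, against 11.02 and 11.04 with DEX and 11.51 with vehicle at ZT4. As for bmm, both ZT4 DEX arrays were the lowest and vehicle ZT16 replicate 2 was the highest. Its day-night difference was 0.57 ± 0.16 (SE), with an unadjusted limma p of 0.00853. The next were CG3862 (r = 0.95) and hiw (r = 0.92), both with levels under 3.46.

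For Lsd-1 the first were Ppn, which encodes the matrix protein papilin, with r = 0.96, and Hml, which encodes the haemocyte protein hemolectin, with r = 0.95, followed by CG9581 with r = 0.93. Ppn had 5.19 and 5.71 with DEX and 5.23 and 5.09 with vehicle at ZT16, against 5.85 and 6.07 with DEX and 6.11 with vehicle at ZT4, so that its ranges did not overlap either. Its difference was -0.69 ± 0.22 (SE) and that of Hml -0.39 ± 0.17. Hml is 1 of 6 listed haemocyte markers, of which 4 were kept, 2 with a positive and 2 with a negative difference. The summed level of these markers reached 6.21 at ZT16 and 6.14 at ZT4 with overlapping ranges, and the part of haemocytes in the difference of Lsd-1 was not tested. For AkhR the first were CG4133 (r = 0.94), the homeobox gene C15 (r = 0.93) and the nicotinic acetylcholine receptor subunit gene nAChRbeta2 (r = 0.93). CG4133 ran from 2.69 to 3.29 and C15 from 2.66 to 3.12, so both reached below the dim level of 2.779.

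**Figure D4:**
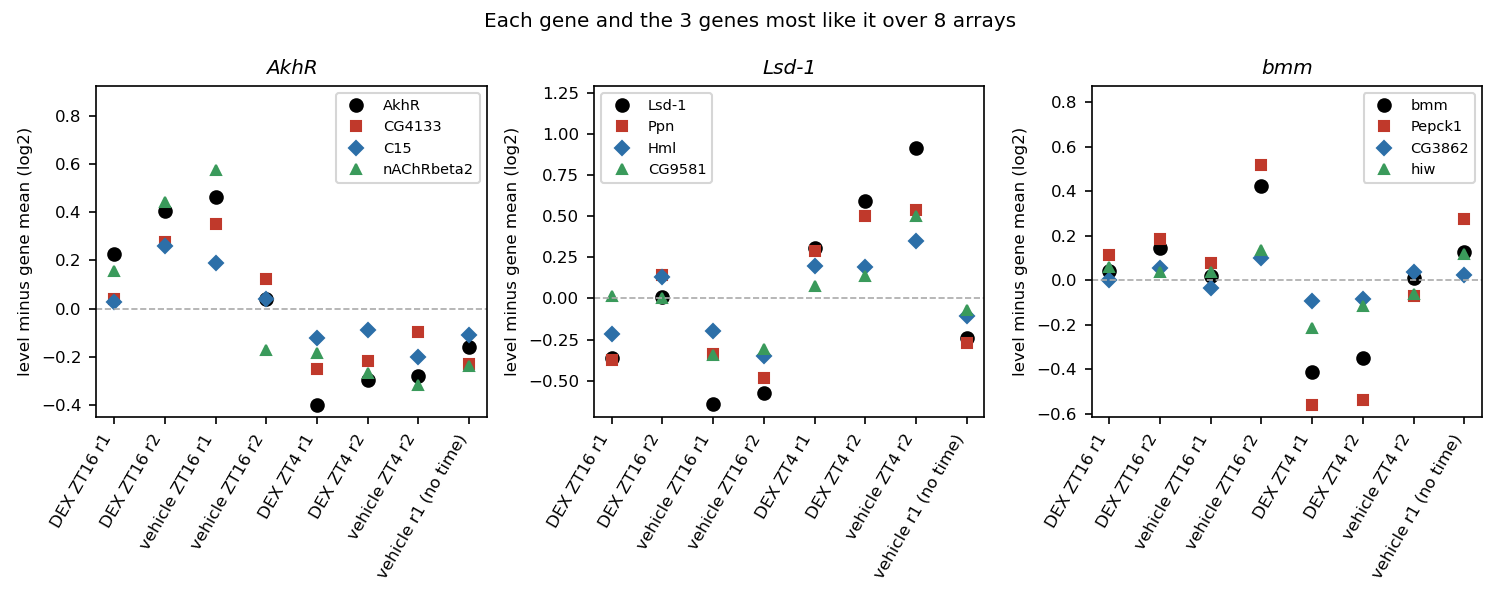
Level minus the gene's mean over 8 arrays (vertical axis, log2 scale) on each array of the 8-array table (horizontal axis, r for replicate) for AkhR, Lsd-1 and bmm and the 3 genes most like each. Black circles are the member and coloured symbols the other genes. Pepck1 follows bmm with r = 0.98, and Ppn follows Lsd-1 with r = 0.96.

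Other genes of these pathways were taken from 7 lists of 127 genes in all, of which 89 were kept on the 8-array table and 86 on the 4-array table. The lists were chosen with earlier results of these data known, so counts and medians over them describe the lists in every comparison. The lipoprotein genes apolpp and Apoltp are also among the fat body markers. For ZT16 against ZT4, 0 of 89 passed limma's adjusted test in either direction. At an unadjusted p under 0.05 there was 1 with a higher and 2 with a lower level at ZT16, shares near the 1.58% and 1.99% of all probe sets, and the median difference was -0.06, against 0.02 for all probe sets. The 3 were Pepck1, given above, the sugar-responsive zinc finger gene sug at -1.24 ± 0.46 (SE), and alc, which encodes a subunit of the energy sensor AMPK, at -0.68 ± 0.26.

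Among 18 kept genes of lipid droplets, triglyceride and lipoproteins, 8 had a positive and 10 a negative day-night difference. The smallest p-values belonged to Pcyt1, an enzyme of phosphatidylcholine synthesis, at -0.44 ± 0.25 (SE), and Apoltp, which loads lipid onto lipoprotein, at -0.47 ± 0.34. Fatty acid oxidation genes had 3 positive and 8 negative differences, led by the peroxisomal oxidase gene Acox57D-p at -0.46 ± 0.42 and Hmgs at -0.43 ± 0.37. Fatty acid synthesis genes had 6 positive and 5 negative, led by the malic enzyme gene Men at 0.50 ± 0.30 and ATPCL, which makes cytosolic acetyl-CoA, at -0.19 ± 0.17. Of the 14 kept insulin and TOR pathway genes 4 were positive and 10 negative, led by raptor, a subunit of TOR complex, at -0.28 ± 0.13, and the TOR inhibitor gene Tsc1 at 0.34 ± 0.18. The neuropeptide gene sNPF had 0.19 ± 0.13, the trehalase gene Treh -0.50 ± 0.34 and Gpdh1, which makes glycerol phosphate, -0.29 ± 0.19. None of these list genes passed, with adjusted p-values in limma between 0.990 and 1.00.

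For DEX on the timed arrays, 0 of 89 pathway genes passed limma's adjusted test in either direction. At an unadjusted p under 0.05, 5 had a higher and 0 a lower level with DEX, where 1.63% and 1.76% of all probe sets did. Since earlier results of these data were known when the lists were chosen, these counts describe the lists alone. The 5 were sug at 2.13 ± 0.46 (SE), the trehalase gene Treh at 0.99 ± 0.34, the sugar-sensing transcription factor gene Mondo at 0.92 ± 0.37, the fatty acid desaturase gene Desat1, also an oenocyte marker here, at 0.70 ± 0.28 and alc at 0.62 ± 0.26. Sugar and glycogen genes had 9 positive and 3 negative differences with a median of 0.20, and fatty acid oxidation genes 2 positive and 9 negative with a median of -0.13, against -0.01 for all probe sets. By the smallest p in the oxidation list, scu had -0.29 ± 0.21 and Mtpbeta -0.27 ± 0.21, both mitochondrial enzymes. Lipid droplet and lipoprotein genes had 11 positive and 7 negative, led by the acyltransferase gene Agpat3 at 0.52 ± 0.22 and Pcyt1 at 0.51 ± 0.25. The acyl-CoA synthetase gene bgm had 0.66 ± 0.34, the insulin receptor substrate gene chico 0.35 ± 0.19, the kinase gene Pdk1 -0.41 ± 0.19, the phosphatase gene puc 0.61 ± 0.27 and sNPF 0.27 ± 0.13.

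Among the 4 arrays without a labelled time, 0 of 86 pathway genes passed limma's adjusted test. At an unadjusted p under 0.05, 4 had a higher and 1 a lower level on the arrays labelled DEX, where 3.20% and 2.22% of all probe sets did. Higher were SNF4Agamma, another AMPK subunit, at 0.68 ± 0.17 (SE), chico at 0.61 ± 0.21, the acetyl-CoA carboxylase gene ACC at 0.55 ± 0.19 and whd, which carries fatty acids into mitochondria for oxidation, at 0.53 ± 0.18, and the insulin-like peptide gene Ilp7 was lower at -0.50 ± 0.12. Mondo had -0.30 ± 0.14, Gpdh1 0.72 ± 0.43, Pepck1 0.62 ± 0.26, puc 0.70 ± 0.46, apolpp, the lipoprotein core gene, 0.55 ± 0.50, bgm 0.55 ± 0.28, Lpin 0.36 ± 0.32, Echs1 0.26 ± 0.29 and the diuretic hormone gene Dh44 -0.27 ± 0.21. The genes at an unadjusted p under 0.05 on the timed arrays did not pass here either. The level of sug was 4.83 and 4.46 on the arrays labelled DEX, against 8.50 and 3.78 on those labelled vehicle, a difference of -1.50 ± 1.43 that rested on 1 high array. Treh had -0.08 ± 0.33, Desat1 0.19 ± 0.21. Fatty acid oxidation genes had 8 positive and 2 negative differences with a median of 0.10, and sugar and glycogen genes 8 positive and 4 negative with a median of 0.10, against -0.05 for all probe sets. With the labels in doubt, no sign is compared between the tables.

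**Figure D5:**
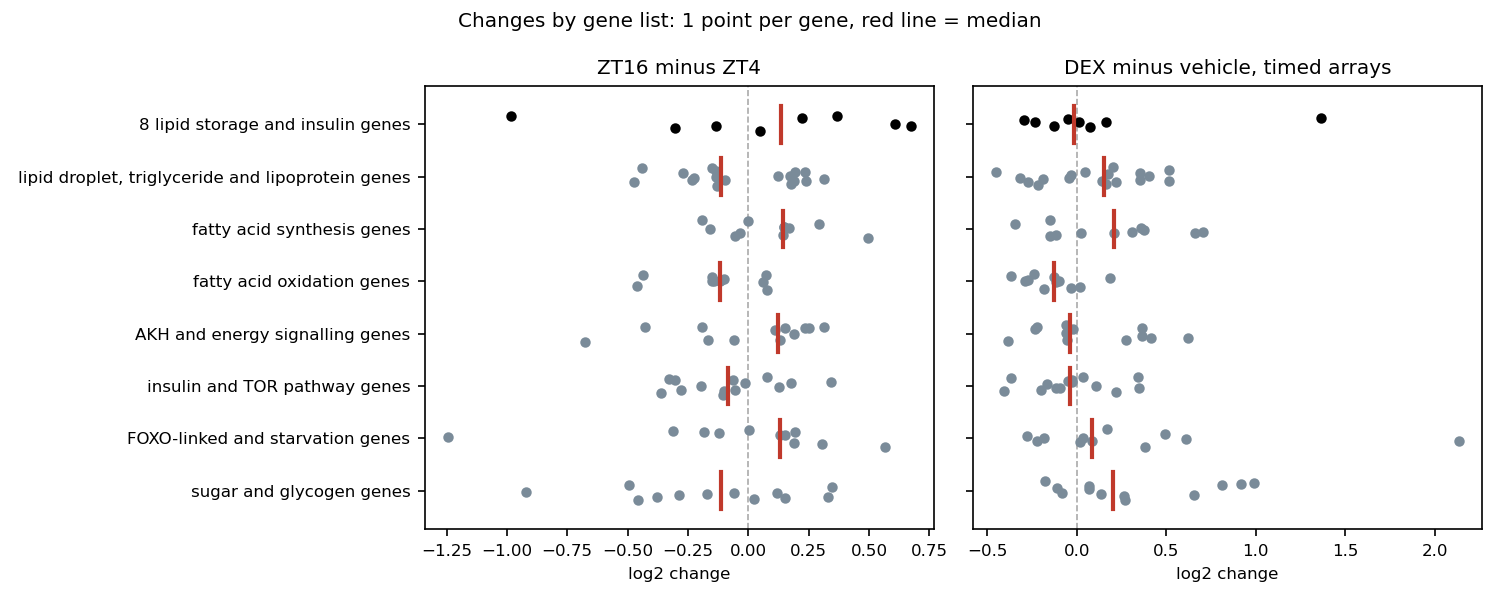
Log2 difference of each kept gene (horizontal axis), for ZT16 minus ZT4 and for DEX minus vehicle on the timed arrays, with 1 point per gene, by gene list (rows), with points spread vertically for legibility. The top row holds the 8 members and red lines are medians. The members' median is 0.14 for ZT16 minus ZT4 and -0.02 for DEX, and Lsd-1 at -0.98 and tobi at 1.36 are the members farthest from 0.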

How the data were processed

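The authors deposited linear intensity values, and GCRMA is named in the submitters' processing notes, without version or settings. Their natural logs ran from 1.84 to 14.64 (8 arrays) and from 0.966 to 13.93 (4 arrays), the range usual for GCRMA on the log2 scale, so the natural log was read as the log2 level. That reading was chosen from the values. Control probe sets, 183 and 44, were left out. Probe sets whose mean lay above the 40th percentile were kept, 11261 of 18769 and 8379 of 13966. Probe sets with 1 annotated gene took its symbol from the platform annotation, updated by RefSeq gene identifier, and the brightest one stood for a gene. The tables were fitted apart in R 4.3.3 by limma 3.58.1 (eBayes with a mean-variance trend), with Benjamini-Hochberg adjustment over kept probe sets and a threshold of 0.05. Time and treatment entered an additive fit over the 7 timed arrays. Fitting each treatment and time its own mean gave the within-group differences. The fits were tested on simulated data. The simulated noise was set below the spread seen here, so how the fits fare at that spread was not tested.

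Members and lists were chosen with earlier results of these data known. Named were all members, the 2 pathway list genes with the smallest p in each of 3 comparisons, pathway genes at an unadjusted p under 0.05, and the 3 genes most like AkhR, Lsd-1 and bmm. Array numbers limit the precision. The search for promoter motifs was not run, because no sequences were used here. Alternatives covered the filter, normalization, trend, array weights, scale, left-out arrays, a replicate block and the vehicle array without a labelled time.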

Additional observations from a re-analysis of the deposited data

How the results depend on the processing

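No member passed limma's adjusted test under any setting run, for any comparison. AkhR and Lsd-1 kept their direction and an unadjusted p under 0.05 for ZT16 minus ZT4 in 14 alternatives each, except that the dim probe set of AkhR gave 0.03 with a p of 0.664. Counts over all probe sets moved in 4 comparisons. For DEX on the timed arrays the count ran from 0 to 18 with single arrays left out, with 18 without DEX ZT16 replicate 2. For DEX at ZT4 it was 1 with array weights. For ZT16 minus ZT4 in DEX arrays it was 1, and 0 with no filter, with the 60th percentile, without the trend and with any single array left out. On the 4-array table it was 1, but 23 with no filter, 0 with quantile normalization, median centring or array weights, and 0 to 314 with single arrays left out, with 192 without DEX replicate 1 and 314 without DEX replicate 2.

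Some signs changed, and the cause was not tested. No member value passed the adjusted test under any setting, so that test does not set the changed values apart. AkhR for ZT16 minus ZT4 in DEX arrays, at an unadjusted limma p under 0.05 in the main fit, changed sign only with its dim probe set. With single arrays left out, ZT16 minus ZT4 ran from -0.096 to 0.16 for Lsd-2, -0.70 to 0.056 for Lip4 and -0.020 to 1.51 for tobi. DEX on the timed arrays ran from -0.11 to 0.10 for AkhR, -0.11 to 0.43 for Lsd-1, -0.52 to 0.24 for Lip4 and -0.041 to 0.40 for InR. DEX at ZT16 ran from -0.15 to 0.28 for AkhR and -0.33 to 0.073 for bmm, and the difference of DEX effects from -0.080 to 0.35 for AkhR. On the 4-array table DEX ran from -0.077 to 0.21 for Lsd-1, -0.28 to 0.32 for bmm, -0.094 to 0.076 for Lip4 and -0.71 to 0.72 for tobi. DEX on the timed arrays was -0.027 for AkhR with quantile normalization, and over all 8 arrays it was -0.033 for AkhR, -0.087 for InR and 0.019 for foxo. With array weights it was -0.19 for Lsd-1 and 0.24 for Lip4. On the 4-array table, quantile normalization gave -0.071 for bmm, 0.023 for Lip4 and -0.11 for tobi, and median centring 0.056 for Lip4. The dim probe set of AkhR gave -0.030 for DEX, 0.044 at ZT4, -0.079 at ZT16, -0.12 for their difference and -0.019 for ZT16 minus ZT4 in DEX arrays.

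Deviations of same-numbered replicates had correlations of -0.24, -0.01 and 0.07 between the 3 groups with 2 timed arrays. So few arrays cannot show whether the numbers mark pairs, and the main fits assumed no pairing. With the replicate block, 0 probe sets passed in the additive fit, AkhR had 0.60 and Lsd-1 -0.92, and no call changed. No paired analysis was possible on the 4-array table because its groups share 1 number.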

Other observations

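The vehicle array of the 8-array table without a labelled time entered no main test. It read 3.28 for AkhR, between the ranges of ZT16 and ZT4, and 4.32 for Lsd-1 and 5.78 for bmm, both within the range of the ZT16 arrays. Its level of InR, 5.36, lay above those of all 7 timed arrays, and its level of foxo, 3.36, below them all. It read 7.75 for Lsd-2, 3.90 for Lip4 and 5.67 for tobi. Pepck1 stood at 11.86 on it, second to vehicle ZT16 replicate 2. Eye and neuronal marker sums, which did not overlap between the times, were low on this array. The eye sum was 10.73, just under the ZT4 range of 10.75 to 10.89. The neuronal sum was 7.77, within the ZT4 range of 7.67 to 7.84. Were this array from ZT4, the ranges of Lsd-1 and bmm would overlap between the times, and those of AkhR would not. Its time was not tested.

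Akh, which encodes the ligand of AkhR and is made in the corpora cardiaca, was dim on the 8-array table, with a mean level of 2.67, and was singled out after its values were seen. It had 3.19 and 3.03 with DEX and 2.20 and 2.22 with vehicle at ZT16, against 4.02 and 2.25 with DEX and 2.16 with vehicle at ZT4. All 3 timed vehicle arrays lay below all 4 DEX arrays, but the vehicle array without a labelled time, at 2.255, lay above DEX ZT4 replicate 2, at 2.245. Without the filter on dim probe sets the DEX difference was 0.93 ± 0.37 (SE), with an unadjusted limma p of 0.0410 and an adjusted p of 0.984. On the 4-array table Akh was not dim, and had 4.86 and 3.04 on the arrays labelled DEX, against 4.01 and 4.16 on those labelled vehicle.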
